A study of Mus musculus with 4 samples.

Results

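The genes described are 10 components of transforming growth factor beta (TGF-beta) signalling: the ligand Tgfb1, its surface anchor Lrrc32, the receptors Tgfbr1 and Tgfbr2, the signal transducers Smad2, Smad3 and Smad4, the inhibitory Smad7, and the corepressors Ski and Skil. They were found by gene symbol among the 50600 genes of the count files, and all 10 were present once. The RNA came from T cells of C57BL/6NJ mice, labelled as primary cells, in 1 group of 4 biological replicates with no second condition. The file headers name the cells Th0, activated, sorted and 72 h, where Th0 is the usual name for helper T cells activated without polarizing cytokines, and no source used here says whether the medium held TGF-beta. No allele, transgene or agent is named, the replicates carry a single donor entry, and age and sex are not recorded. Whether the libraries come from separate cultures or animals is not stated, so each spread below is a spread between libraries and may be technical.

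TGF-beta is secreted in a latent form, held by its own propeptide, and must be released before it can bind. Active ligand binds the type II receptor, which phosphorylates the type I receptor, which in turn phosphorylates the receptor-regulated Smads. These join Smad4 and enter the nucleus, where Ski and Skil hold target genes back and Smad7, itself a target, feeds back on the receptor. In CD4 T cells the pathway restrains proliferation and effector differentiation and takes part in making regulatory and Th17 cells.

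The libraries held 34978213, 118937382, 42274502 and 95356041 counted read pairs in replicates 1 to 4. All 7 T cell markers, such as Cd3e and Cd4, reached a level of 1 TPM in every library, where TPM is the count divided by exonic length and scaled to the same total in each library, with a summed level of 5403 to 5756 TPM. The 6 platelet markers summed to 1.54 to 1.87 TPM, nearly all from Itga2b, with Pf4, Ppbp, Gp9 and Gp6 at 0 counts in every library. The 6 macrophage markers summed to 1.89 to 3.52 TPM, with Lyz2 and C1qa at 0. Adgre1 led them at 1.80, 1.27, 1.76 and 1.10 TPM in replicates 1 to 4, before Cd14 at 1.69, 0.576, 0.736 and 1.10. The 5 B cell markers summed to 2.25 to 5.59 TPM, led by Cd79b at 3.10, 1.78, 1.46 and 1.89. The 6 stromal and endothelial markers summed to 3.94 to 4.76 TPM, led by Pdgfrb at 3.44, 2.72, 3.29 and 3.41, with Cdh5 at 0. In bulk RNA, fewer cells of a type and less RNA per cell cannot be told apart.

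All 10 members reached 1 TPM in every library, as did 49.9% of the 21764 protein-coding genes. Their median level was 36.9 TPM, beside 31.9 TPM for the 10868 protein-coding genes that reached 1 TPM in every library. Levels spanned from Tgfb1, above 90.8% of those genes, down to Lrrc32, above 10.9% of them. None of the 45 pairs of members changed order in any library, although ranges over the libraries overlapped for the neighbours Smad2 and Smad4, Skil and Tgfbr2, and Smad3 and Lrrc32.

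**Figure D1:**
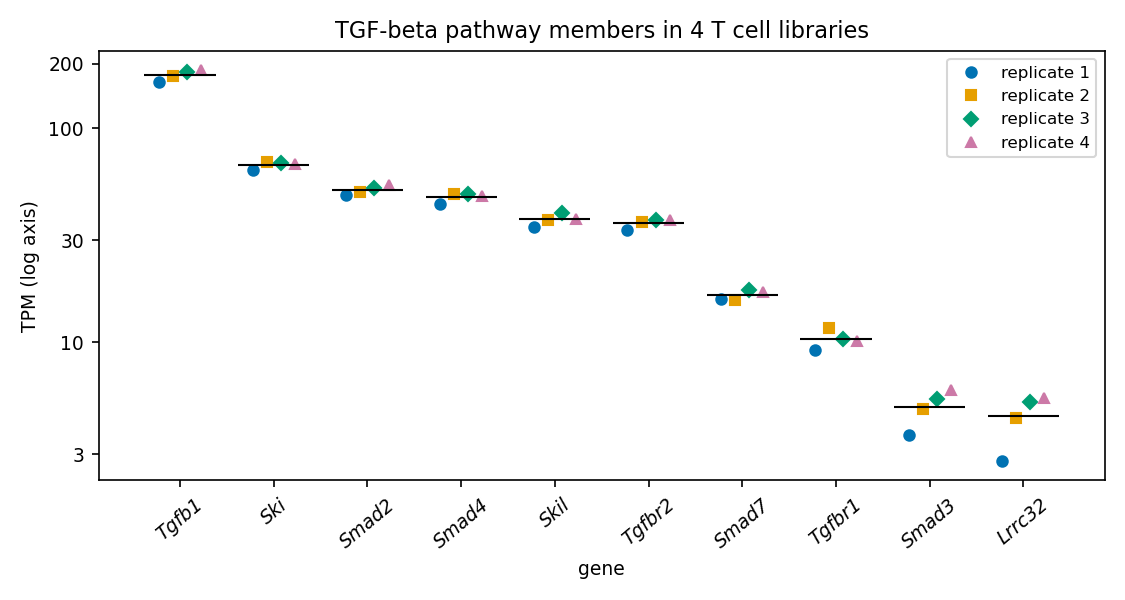
Level of each member in TPM on a log axis, with 1 point per library and a line at the mean of 4. Tgfb1 lies highest at 165 to 187 TPM, Smad3 and Lrrc32 lie lowest, and replicate 1 is the lowest point for 9 of the 10 genes.

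Among ligands, Tgfb1, the isoform that lymphocytes chiefly make, supplied nearly all transcripts. Tgfb1 (ENSMUSG00000002603.15, chromosome 7, 25687002 to 25705077, plus strand, mm10) stood at 165, 175, 184 and 187 TPM in replicates 1 to 4, a mean of 178 ± 9.93 (SD, n = 4). Tgfb3 stood at 2.20, 1.87, 2.48 and 1.78 TPM, and Tgfb2 had 3, 33, 14 and 13 counts, or 0.116 ± 0.0661 TPM (SD, n = 4). Tgfb1 thus made up 98.8% ± 0.200 (SD, n = 4) of the summed TPM of the 3 isoforms. It exceeded Tgfb3 by 6.36 ± 0.24 (SD, n = 4) on the log2(TPM + 0.1) scale used for every difference between genes below, which understates differences of low genes. The difference from Tgfb2 was 9.73 with this pseudocount and 7.32 with a pseudocount of 1, so its size rests on how the few Tgfb2 counts are treated.

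Latent TGF-beta can be displayed at the cell surface by Lrrc32 (also called GARP), which is known from activated regulatory T cells and platelets, or by Nrros, a related anchor known from myeloid cells. Lrrc32 (ENSMUSG00000090958.2, chromosome 7, 98489283 to 98502181, plus strand, mm10) was the lowest member, at 2.80, 4.44, 5.28 and 5.53 TPM in replicates 1 to 4, from 148, 759, 321 and 765 counts. Nrros stood at 44.7, 51.3, 48.3 and 46.2 TPM, above Lrrc32 in every library without overlap. Lrrc32 made up 5.89% of the summed TPM of both anchors in replicate 1 and 10.7% in replicate 4, and the difference of Lrrc32 minus Nrros was -3.41 ± 0.41 log2 (SD, n = 4). The 7 regulatory T cell markers had a summed level of 718 to 850 TPM, most of it from Il2ra and Tnfrsf9, so the sum mainly follows these genes. Of the 7 regulatory T cell markers, 4 were lowest in replicate 1 as Lrrc32 was: Il2ra at 429, 500.2, 505.7 and 504.7 TPM, Tnfrsf9 at 241, 269, 263 and 294, Ikzf4 at 10.1, 12.3, 14.95 and 16.2, and Itgae, which stayed below 1 TPM. Foxp3, the regulator that defines these cells, stood at 2.51, 1.66, 2.09 and 1.502 TPM and was highest in replicate 1, as was Ikzf2 at 7.72, 7.29, 6.65 and 6.23 TPM. Nrp1 stood at 27.5, 27.6, 26.8 and 26.2 TPM. Replicate 1 was also the lowest library in TPM for 9 of the 10 members. It was so for the general T cell markers Trac, Cd5, Cd4 and Cd28, but not for Cd3d, Cd3e and Cd3g. The share of all genes that were lowest in replicate 1 is not given here, so the count of members cannot be called particular to them. The part of regulatory T cells in the Lrrc32 level was not tested.

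The signalling receptors were unequal. Tgfbr2, the type II receptor that binds ligand first (ENSMUSG00000032440.13, chromosome 9, 116084293 to 116175360, minus strand, mm10), stood at 33.6, 36.4, 37.2 and 37.4 TPM in replicates 1 to 4. Tgfbr1, the type I receptor that phosphorylates Smad2 and Smad3 (ENSMUSG00000007613.15, chromosome 4, 47353222 to 47414931, plus strand, mm10), stood at 9.18, 11.7, 10.4 and 10.1 TPM. The ranges did not overlap, and Tgfbr2 was 3.52 ± 0.274 times Tgfbr1 (mean ratio, SD, n = 4), or 3.13 times when TPM was computed on the longest coding transcript, capped at the counted exons.

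The receptors also stood differently within their own families. Tgfbr2 made up 76.7% ± 1.60 (SD, n = 4) of the summed TPM of the 5 type II receptors, with Bmpr2, the receptor of bone morphogenetic proteins, lower by 2.59 log2. Tgfbr1 made up 28.7% ± 1.93 (SD, n = 4) of the 7 type I receptors and was not the highest of them. Acvr1b, the activin receptor whose kinase also acts on Smad2 and Smad3, stood at 11.2, 12.96, 13.02 and 12.1 TPM, above Tgfbr1 in 4 of 4 libraries, with Tgfbr1 minus Acvr1b at -0.25 ± 0.08 log2 (SD, n = 4). With the capped transcript length the difference was -0.071 and no longer had one direction in all libraries. The order turned to 0.31 in favour of Tgfbr1 when depth-scaled counts without gene length (CPM) were compared. Tgfbr3, the co-receptor betaglycan, stood at 5.24, 6.66, 7.05 and 6.15 TPM.

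The 250 bases before the start of the ligand and of both receptors are shown because the ligand and its receptors differed widely in level. They come from a table of RefSeq promoters, build GRCm38.p6, in which 5 of the 10 members were matched. Capitals mark the Smad box CAGAC and the GC box GGGCGG, searched on both strands, motifs that do not overlap each other here. Over all 32851 windows of this length in the table, 42.2% hold a Smad box and 32.7% a GC box. The Tgfb1 window, chr7:25686752-25687001 on the plus strand, has 5 GC boxes and no Smad box, counting overlapping matches. The Tgfbr1 window, chr4:47352972-47353221 on the plus strand, has 2 GC boxes and no Smad box, and the Tgfbr2 window, chr9:116175364-116175613 on the minus strand, has 1 Smad box and no GC box. A second Tgfbr1 start in the table lies 32994 bases downstream, and its window, not printed, has 1 Smad box, no GC box and 52.8% G and C. A match is a stretch of letters, not a bound site. G and C made up 75.2% of the Tgfb1 window, 74.8% of the printed Tgfbr1 window and 58.4% of the Tgfbr2 window, beside a median of 52.4% over all windows.
Tgfb1: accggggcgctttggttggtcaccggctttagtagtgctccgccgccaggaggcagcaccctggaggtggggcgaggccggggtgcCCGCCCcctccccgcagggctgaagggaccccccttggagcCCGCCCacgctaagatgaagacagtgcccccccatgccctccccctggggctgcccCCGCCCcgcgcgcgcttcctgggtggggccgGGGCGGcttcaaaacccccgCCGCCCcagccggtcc
Tgfbr1: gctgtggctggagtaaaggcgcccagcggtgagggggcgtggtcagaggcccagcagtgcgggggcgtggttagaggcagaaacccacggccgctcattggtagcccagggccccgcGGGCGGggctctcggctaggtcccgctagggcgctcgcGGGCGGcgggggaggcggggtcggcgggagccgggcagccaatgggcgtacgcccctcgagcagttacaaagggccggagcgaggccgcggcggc
Tgfbr2: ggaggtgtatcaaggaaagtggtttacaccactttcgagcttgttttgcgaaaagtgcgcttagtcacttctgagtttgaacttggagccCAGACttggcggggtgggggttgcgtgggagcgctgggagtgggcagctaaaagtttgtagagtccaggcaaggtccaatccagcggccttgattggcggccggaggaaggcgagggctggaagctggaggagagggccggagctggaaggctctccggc

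Of the other matched members, the Smad3 window has 2 GC boxes and the Ski window 5, both without a Smad box.

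Smad2 was by far the more abundant of the pair of Smads that TGF-beta receptors act on. Smad2 (ENSMUSG00000024563.15, chromosome 18, 76241580 to 76305731, plus strand, mm10) stood at 49.0, 50.6, 52.8 and 54.1 TPM in replicates 1 to 4. Smad3 (ENSMUSG00000032402.12, chromosome 9, 63646767 to 63757994, minus strand) stood at 3.71, 4.86, 5.47 and 5.99 TPM, below the lowest Smad2 value in every library. Smad2 exceeded Smad3 by 3.36 ± 0.23 log2 (SD, n = 4), and Smad3 made up 8.79% ± 1.27 (SD, n = 4) of their sum, from 7.04% in replicate 1 to 9.97% in replicate 4. Smad3 binds DNA directly and Smad2 in its main form does not, so the pair is not interchangeable in function.

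Smad4, the common partner of all receptor-regulated Smads (ENSMUSG00000024515.13, chromosome 18, 73639009 to 73703780, minus strand), stood at 44.3, 49.5, 49.2 and 48.4 TPM. Its ratio to Smad2 and Smad3 together was 0.846 ± 0.0363 (SD, n = 4). Smad4 lay below Smad2 by 0.031 to 0.16 log2 in the 4 libraries, their ranges overlapped, and with coding transcript lengths, capped at the counted exons, Smad2 was the higher in 2 of 4 libraries. Of the Smads that serve bone morphogenetic proteins, Smad5 stood at 10.3 ± 0.790 TPM and Smad1 at 6.45 ± 0.421 (SD, n = 4), both above Smad3, while Smad9 had 0, 26, 4 and 1 counts. Smad2 made up 70.4% ± 1.32 (SD, n = 4) of the 5 receptor-regulated Smads.

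**Figure D2:**
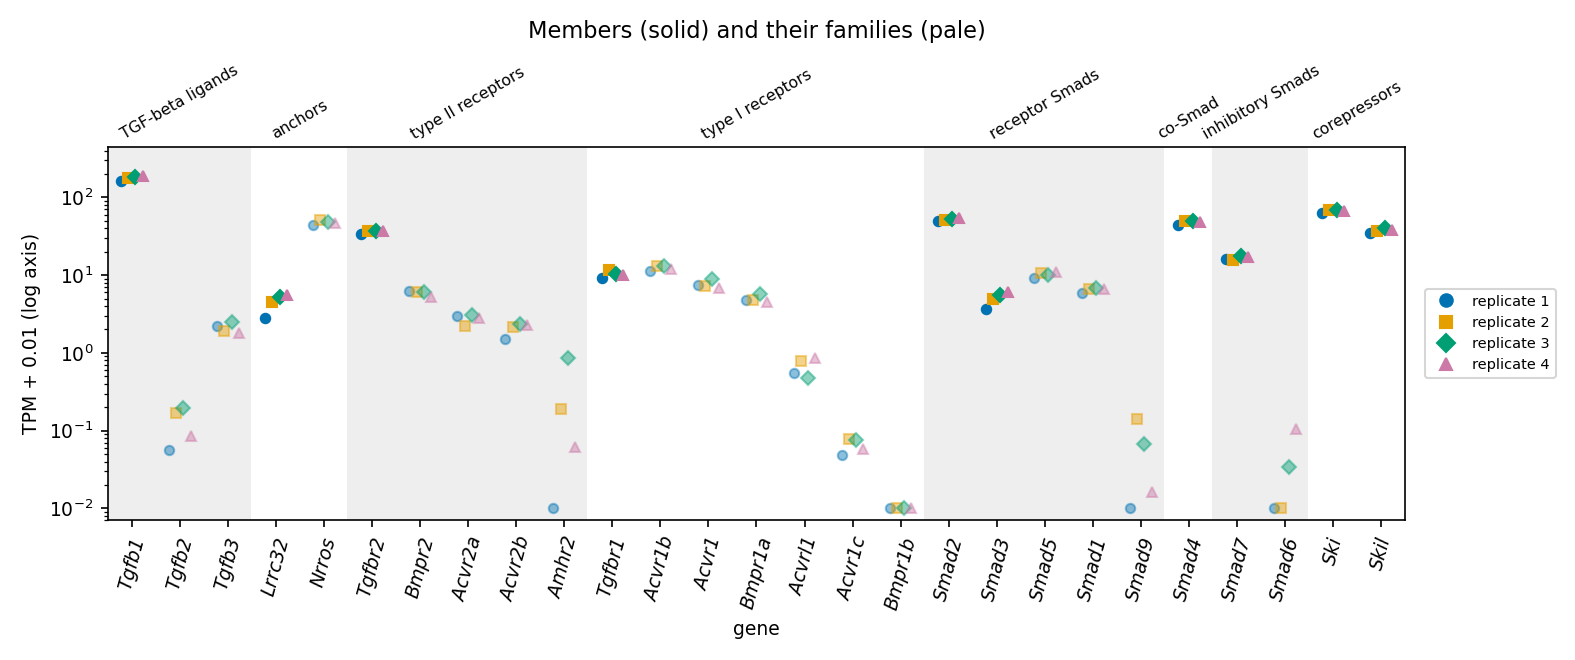
Level of the members (solid) and of the other genes of their families (pale), as TPM plus a small constant, so that 0 can be drawn, on a log axis, 1 point per library. Tgfb1, Tgfbr2, Smad2 and Smad7 lead their families in every library, while Nrros lies above Lrrc32 and Acvr1b above Tgfbr1.

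Smad7 was nearly the sole inhibitory Smad counted. Smad7, which blocks the type I receptor and recruits ubiquitin ligases to it (ENSMUSG00000025880.11, chromosome 18, 75367529 to 75395935, plus strand), stood at 16.0, 15.8, 17.6 and 17.2 TPM, a mean of 16.6 ± 0.889 (SD, n = 4). Smad6, which mainly restrains signals of bone morphogenetic proteins, had 0, 0, 1 and 9 counts. Smad7 exceeded Smad3 by 1.73 ± 0.24 log2 (SD, n = 4), and its level was 1.62 ± 0.184 times that of Tgfbr1 (mean ratio, SD, n = 4).

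Of the protein-coding genes that reached 1 TPM in every library, 72.2% lay below the corepressor Ski and 55.0% below the corepressor Skil. Ski (ENSMUSG00000029050.15, chromosome 4, 155154075 to 155222592, minus strand, mm10) stood at 63.7, 69.5, 68.9 and 67.7 TPM, and Skil, also called SnoN (ENSMUSG00000027660.16, chromosome 3, 31095058 to 31122577, plus strand, mm10), at 34.5, 37.4, 40.4 and 37.9 TPM. Ski lay above Skil in every library without overlap, by 0.84 ± 0.06 log2 (SD, n = 4). This difference was 0.33 with the capped transcript length, and as CPM, without gene length, it was 0.045 and did not have one direction in all libraries. Together they were 1.86 ± 0.0719 times Smad2 and Smad3 together (mean ratio, SD, n = 4). Ski exceeded Smad7 by 2.01 ± 0.08 and Skil exceeded Smad7 by 1.17 ± 0.06 log2 (SD, n = 4). Skil and Smad7 are both known targets of the pathway they restrain.

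Each of the 18 differences between genes that were computed had one direction in 4 of 4 libraries. The exact two-sided sign-flip permutation test gave the same p, 0.13 when rounded, for each before and after Benjamini-Hochberg adjustment over the 18. This is the smallest p that 4 libraries allow, so no difference could pass 0.05.

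Gene length matters to the order of these levels. The exonic length in the files joins the exons of all annotated transcripts, and for Tgfb1 it is 5042 bases against 2175 for its longest coding transcript. For the other members it is at most 1.44 times that transcript, the largest ratio being that of Skil. With the transcript length in its place, never longer than the counted exons, Tgfb1 stood at 296 ± 15.8 TPM (SD, n = 4), Ski at 48.9 ± 1.77 and Skil at 39.0 ± 2.48. Smad2 and Smad4 then stood at 37.2 ± 1.54 and 37.8 ± 1.79 TPM (SD, n = 4) and could not be ordered, and Skil lay above Smad2 in place of below it. New lengths for all genes also rescale every TPM. Ski fell to 0.726 and Smad2 to 0.720 of the former mean, although Ski went only from 5562 to 5522 bases and Smad2 kept its exonic length. Of the 45 pairs, 42 kept their order in all libraries. Smad2 carries a further limit, since the later annotation used for names extends it by 5232 bases past the last counted base, and fragments from there are not in the deposited count. No exon of any member overlaps an exon of another gene on either strand.

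**Figure D3:**
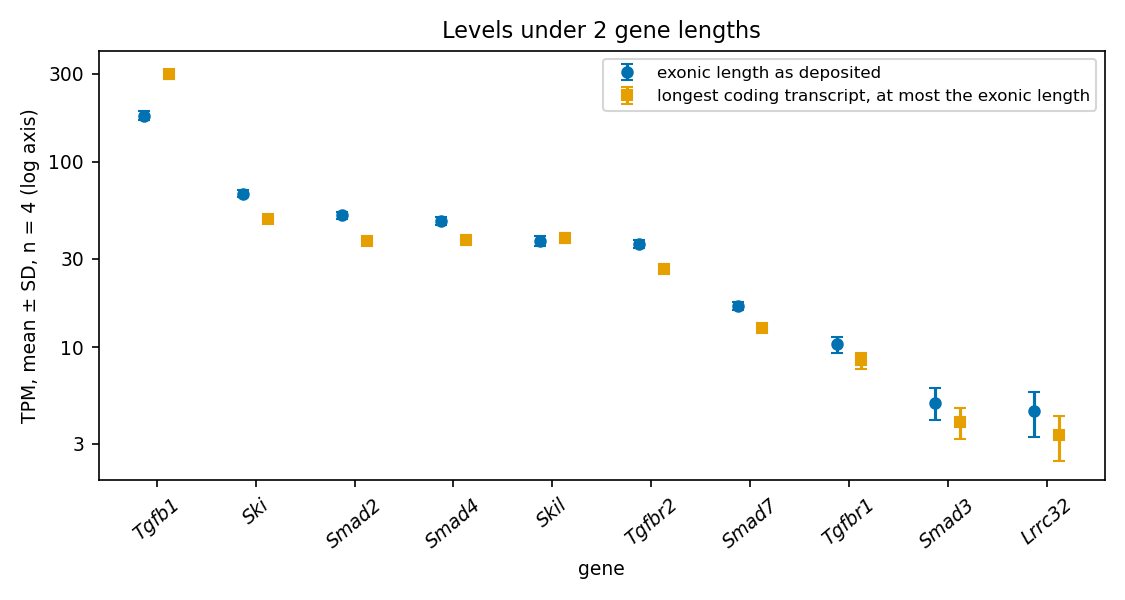
Mean level of each member in TPM on a log axis with SD over 4 libraries, computed on the exonic length as deposited (circles) and on the longest coding transcript, capped at the exonic length (squares). Tgfb1 moves up from 178 to 296 TPM, and Smad2, Smad4 and Skil draw level.

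The members were then compared between libraries. Smad3 and Lrrc32, the lowest 2 in level, had the widest spread, both lowest in replicate 1 and highest in replicate 4. Lrrc32 differed by 1.98-fold between those libraries and Smad3 by 1.62-fold in TPM. For Lrrc32 in replicate 1 the exact Poisson 95% interval of the level was 2.36 to 3.29 TPM, clear of 5.14 to 5.93 TPM in replicate 4, and for Smad3 it was 3.25 to 4.22 against 5.62 to 6.38 TPM. These intervals carry the error of counting alone and treat each fragment as a separate molecule. Amplified fragments without molecular barcodes need not be that, so the intervals may be too narrow. Without replicate 1 the widest fold was 1.24 for Lrrc32 and 1.23 for Smad3.

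A test across all genes did not set them apart. Of the 10 members, 0 were called more variable than genes of their level by edgeR, from the fit of 1 mean per gene with the trended dispersion (Benjamini-Hochberg adjusted p below 0.05), beside 0.463% of the 14269 genes tested. At an unadjusted p below 0.05 the edgeR count was 1 of 10, beside 5.69% of all genes. That gene was Lrrc32, with an unadjusted p of 0.0296 and an adjusted p of 0.749 in edgeR. Smad3 followed with an edgeR unadjusted p of 0.159. At an adjusted p below 0.05 limma's chi-square and F variance tests called 0 members, beside 0.981% and 0.217% of all genes. The unadjusted p of Lrrc32 was 0.0278 in limma's chi-square test and 0.0649 in its F test. Across the other analyses the adjusted p of Lrrc32 lay between 0.0616, with a common dispersion in edgeR, and 1.00.

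The other 8 members each had a spread below the median of the tested genes, which were not matched to them for level. Their spread of log2 CPM, scaled with the trimmed mean of M values (TMM), was an SD of 0.02 for Ski, smaller than in all but 0.533% of tested genes, 0.03 for Smad4, 0.04 for Tgfbr2 and 0.05 for Smad2 and Tgfb1. It was 0.06 for Skil, 0.07 for Smad7 and 0.11 for Tgfbr1, against 0.26 for Smad3 and 0.41 for Lrrc32. The median over the members was 0.05, over the 7 T cell markers 0.06 and over all genes tested 0.12. Tgfbr1, the widest of the 8, had a larger SD than 47.1% of tested genes. It had 11.7 TPM in replicate 2 against 9.18 to 10.4 in the others.

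Base composition moved with the libraries. Over 12151 coding genes, Spearman's rho of log2 CPM, relative to each gene's mean, with GC content was -0.25 in replicate 1 and 0.26 in replicate 4. With exonic length it was -0.15, 0.015, 0.28 and -0.15 in replicates 1 to 4. Transcripts of Lrrc32 are 58.3% and of Smad3 53.1% G and C. Those of Tgfb1, Smad7 and Ski, at 62.5%, 56.9% and 55.6%, also lie above Smad3. All members were examined after a correction for GC content and exonic length. The range over libraries of Lrrc32 went from 0.91 to 0.76 log2 and that of Smad3 from 0.62 to 0.56, with replicate 1 still lowest and replicate 4 still highest for both. Before the correction replicate 1 was the lowest library for 8 of the 10 members on this scale, and after it for 5. The share over all genes is given for neither.

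**Figure D4:**
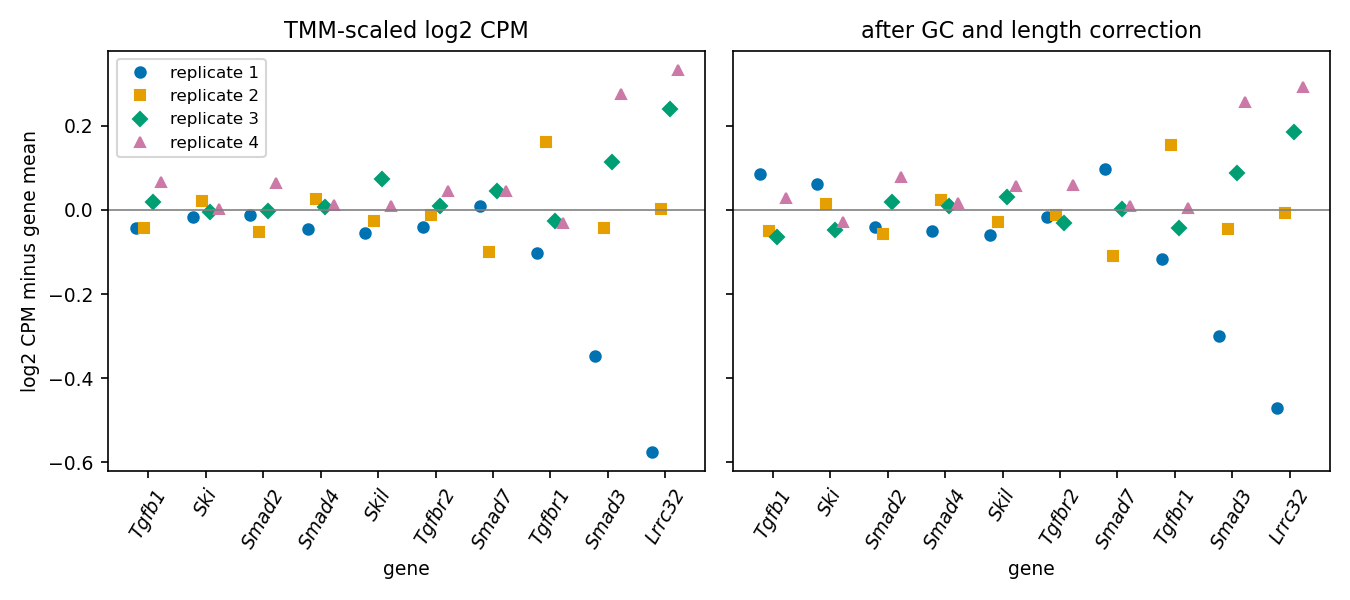
Log2 CPM of each member minus its mean over 4 libraries, before (left) and after (right) correction for GC content and length, 1 point per library. Lrrc32 spans 0.91 log2 before and 0.76 after, Smad3 0.62 and 0.56, while the widest of the others, Tgfbr1, spans 0.26 and 0.27.

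The rest of the pathway was described by lists of 98 further genes, of which 68 reached 1 TPM in every library, beside 49.9% of protein-coding genes. None of the 77 that could be tested was called variable by edgeR (4 at an unadjusted p below 0.05, named below). Over all genes tested the shares called and at an unadjusted p below 0.05 were 0.463% and 5.69%. The count of calls was 2 with a common dispersion in edgeR (Eng and Foxh1), where 6.69% of all genes were called, and 2 with limma's chi-square variance test (Eng and Hipk2), against 0.981% of all genes. It was 0 with limma's F test, against 0.217%, and 1 after the GC and length correction (Hipk2), against 0.584%. All 10 kinases that act beside the Smads reached 1 TPM in every library, led by Map3k7, the TGF-beta activated kinase TAK1, at 120 ± 7.93 TPM, Rhoa at 102 ± 3.06 and Mapk14 at 101 ± 6.65 (SD, n = 4). Of 17 regulators of receptors and Smads 16 did so, led by Fkbp1a, which binds the resting type I receptor, at 335 ± 11.5 TPM, Strap at 266 ± 10.4 and Stub1 at 191 ± 8.12 (SD, n = 4). Of 13 nuclear partners 10 did so, led by Snw1 at 164 ± 7.65 TPM, Ncor1 at 80.4 ± 4.53 and Sin3a at 68.6 ± 2.49 (SD, n = 4). Ncor1 and Sin3a belong to corepressor complexes. Some of these orders rest on gene length. With the capped transcript length Rhoa led its list at 250 TPM, before Map3k7 at 95.9 and Mapk14 at 88.5. Among the nuclear partners Tgif1, at 81.7 TPM, then lay above Sin3a at 51.2. Fkbp1a, Strap and Stub1 kept their order.

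The counts around the ligand and its receptors lay on both sides of the 49.9% of protein-coding genes that reached 1 TPM in every library. Of 16 genes for latency, storage and release 9 reached 1 TPM in every library, led by the propeptide-cleaving protease Furin at 87.0 ± 8.91 TPM, Nrros, and the integrin chain Itgb3 at 38.9 ± 3.99 (SD, n = 4). Itgb8, a chain of the integrin that frees TGF-beta from Lrrc32, was at 0.112, 0.236, 0.216 and 0.144 TPM, and Ltbp1, a matrix store of latent ligand, had 0 counts in every library, which allows up to 0.0252 CPM in the deepest. Of the 14 other ligands of the family 5 did so, led by Bmp2 at 18.7 ± 2.43 TPM, Gdf11 at 12.6 ± 1.20 and the activin chain Inhba at 8.98 ± 1.64 (SD, n = 4). Of 13 other receptors and co-receptors 8 did so, with the endothelial co-receptor Eng, after Acvr1b, at 8.32, 10.03, 7.51 and 5.37 TPM (edgeR unadjusted p = 0.0057, adjusted p = 0.363) and Acvr1 at 7.64 ± 0.898 TPM (SD, n = 4). With the capped transcript length Nrp1, also listed for latency, storage and release, lay at 53.0 TPM, above Nrros at 40.1 and Itgb3 at 28.6. Acvr1, at 8.08 TPM, then lay above Eng at 6.65. Bmp2, Gdf11 and Inhba kept their order.

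Of 13 genes known to respond to TGF-beta in T cells or other cells, 10 reached 1 TPM in every library, beside 49.9% of protein-coding genes. The median level of the 13 was 7.31 TPM. Among the highest were Id3, an inhibitor of E proteins, at 471 ± 13.6 TPM and Gadd45b at 86.4 ± 11.3 (SD, n = 4). Pmepa1, which feeds back on Smad2 and Smad3, stood at 17.0, 22.8, 21.9 and 22.9 TPM, while Itgae, the integrin chain that TGF-beta induces on resident T cells, stood at 0.406, 0.497, 0.471 and 0.599 TPM. Pmepa1 and Itgae, like Tgfbr3, Itgb8, Ltbp1 and the regulatory T cell markers above, were chosen after their values were seen. Levels in 1 group cannot say whether any of these genes responded to TGF-beta here.

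The other genes with an unadjusted p below 0.05 were nuclear partners. Hipk2, a kinase, stood at 6.44, 4.11, 7.02 and 4.97 TPM (edgeR adjusted p = 0.130), the acetyltransferase Crebbp at 23.4, 20.3, 25.9 and 19.8 TPM (adjusted p = 0.303) and Foxh1 at 3.39, 1.64, 2.30 and 0.726 TPM (adjusted p = 0.633). All 3 were higher in TPM in replicates 1 and 3, the libraries with fewer counts, than in replicates 2 and 4. No member showed this order, but further listed genes did, among them Tgfb3, Acvr1, Bmpr2 and Foxp3. The part of depth in this order was not tested.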

How the data were processed

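For each library the deposited file gives unnormalized counts of fragments by gene. Per the file headers, the authors counted STAR alignments (version not given in the sources used here) with featureCounts 1.4.6-p4 over exons of GENCODE M13 on mm10, reverse-stranded and with both ends mapped. The recorded command does not set the option that counts multiply mapped reads. Symbols, transcript lengths and GC content came from GENCODE M21, which matched 50376 of the 50600 genes. The exonic lengths are those of the deposited files.

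TPM was computed over all genes. Variability was tested with edgeR 4.0.16 in R 4.3.3 (filterByExpr, TMM, an intercept only, goodness of fit under the trended dispersion, Benjamini-Hochberg adjustment over 14269 genes). A filter for 1 group needs enough counts in all 4 libraries. Differences between genes used a pseudocount of 0.1 TPM and an exact sign-flip permutation test. The GC and length correction subtracted splines with 5 degrees of freedom per library. The members, lists and gene pairs were chosen with earlier results of these data known. All members were named, and of each further list the 3 genes highest in mean TPM on the deposited exonic length, the gene pairs and any called gene. One gene that this rule names is not reported here. The labels call the assay total RNA-seq, while the linked library protocol is named for polyadenylated RNA.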

Additional observations from a re-analysis of the deposited data

Results flagged for a closer look

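Of 56 values examined over the 4 libraries, 2 had 1 library far from the other 3 relative to the whole range, where chance alone gives about 1 in 20, or 2.80. Tgfbr2 minus Tgfbr1 was 1.63 log2 in replicate 2 against 1.84 to 1.88 in the others, the library in which Tgfbr1 was highest. Ski minus Smad7 was 2.13 log2, also in replicate 2, against 1.96 to 1.99, the library in which Smad7 was lowest and Ski highest. No cause was tested for either.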

How the results depend on the processing

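The members' median level of 36.9 TPM was 36.2 to 37.8 when each library in turn was left out. It was 21.6 TPM with the longest coding transcript length, 31.8 with that length capped at the counted exons, chosen after seeing the data, and 56.1 as CPM without gene length. The median of 31.9 TPM for the protein-coding genes detected in every library holds for the deposited length. It is not given on these other scales and cannot be set beside them. The uncapped length divides the Smad2 count by bases that were not counted. Smad4 minus Smad2 turned from -0.11 to 1.21 log2 with the uncapped length and to 0.024 with the capped one (exact two-sided sign-flip permutation p = 0.625), and Tgfbr1 minus Acvr1b from -0.25 to 0.31 with CPM. The other 177 alternative values of differences between genes kept the direction of their mean. The count of variable members stayed 0 under all 11 alternatives. Over all genes it was 66, and 955 with a common dispersion, 140 and 31 with limma's chi-square and F tests (the F test added after seeing the data) and 41 without replicate 1. Of the members and further pathway genes 78 reached 1 TPM in every library, 63 reached 5 TPM and 81 reached 1 CPM. No paired analysis was possible because the study has a single group. Depth limits Smad3 and Lrrc32 most, with 232 and 148 counts in replicate 1.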
